A study of Mus musculus with 55 samples.

Results

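The antioxidant response genes that depend on the transcription factor Nrf2 were described in the livers of Collaborative Cross (CC) mice. The set held 10 genes, chosen by symbol, of 37620 genes quantified. It comprised Nfe2l2, which encodes Nrf2 itself, its inhibitor Keap1, and 8 targets, Gclc, Gclm, Gsr, Txnrd1, Srxn1, Hmox1, Nqo1 and Ephx1. All 10 were expressed in every mouse and passed the expression filters of the tests used.

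Under basal conditions Keap1 holds Nrf2 in the cytoplasm as an adaptor of a Cul3 ubiquitin ligase, so that Nrf2 is degraded as it is made. Electrophiles and oxidants modify cysteines of Keap1, Nrf2 then accumulates, enters the nucleus, and binds with a small Maf protein to antioxidant response elements near its target genes. In the liver these targets make and regenerate glutathione, reduce thioredoxin and peroxiredoxins, break down haem, and detoxify quinones and epoxides. Because much of this control acts on the Nrf2 protein, the Nfe2l2 transcript is not by itself a measure of Nrf2 activity.

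Liver RNA was sequenced from 55 male mice of 29 CC lines, a panel of recombinant inbred strains that descend from a common set of inbred founders. The mice of a line carry close to the same genome, and 8 lines had 1 mouse, 16 had 2 and 5 had 3. The animals received no treatment, were between 8 and 11.9 weeks old and weighed between 12.8 and 38 g, and the groups compared are the lines, named IL- and a number as in the labels. Each mouse had between 20.5 and 34.0 M estimated fragments on annotated genes, and levels are given as FPKM, fragments per kilobase of transcript scaled to the mapped fragments of the library. In RNA of whole liver, fewer cells of a type and less RNA per cell cannot be told apart.

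Lines IL-1052, IL-2750, IL-4457 and IL-2146 stood apart from the rest. Of the 47 mice with a line mate, 42 were most similar to a mouse of their own line by Spearman correlation over 5949 traits. Among the exceptions, replicate 1 of IL-1052 correlated at 0.972 with replicate 1 of IL-2750 and at 0.913 with its own line mate, and replicate 2 of IL-1052 was closest to replicate 2 of IL-2750 (0.955). Replicate 3 of IL-2750 was closest to replicate 1 of its own line (0.968). The similarity of the mice of these lines thus goes in part against their labels. The labels were kept, so calls in IL-2750 stay in the counts, and some results across lines are also given without both lines. The mice of IL-4457 differed from the mean of the other lines at 20.9% of genes upward and 18.4% downward (edgeR quasi-likelihood test, Benjamini-Hochberg adjusted p under 0.05). Those of IL-2146 did so at 26.1% and 23.1%, the most of any line, and its replicate 2 was not closest to its line mate. Results across lines are therefore also given without IL-4457, and without IL-2146 where that changed a call.

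The promoter of Srxn1 is shown because this gene varied most among the lines, and 3 others because they hold the core motif. RefSeq (GRCm38.p6) gave a promoter, from 250 bases before to 50 bases after a start site, for 7 of the 10 genes, with none for Gclc, Hmox1 and Gsr. These 7 genes had 9 promoters, of which 4, of 4 genes, held the core of the antioxidant response element, TGACNNNGC on either strand (GCNNNGTCA), next to 12.4% of 32851 promoters of that length. Capitals mark the matches to TGACNNNGC, to the related TGAGNNNGC (GCNNNCTCA on the other strand), and to TGAGTCA or TGACTCA, in the 250 bases before the start site. The match TGAGTCAGC counts for both of the last 2 motifs.
Srxn1, chr2:152105274-152105523, plus strand: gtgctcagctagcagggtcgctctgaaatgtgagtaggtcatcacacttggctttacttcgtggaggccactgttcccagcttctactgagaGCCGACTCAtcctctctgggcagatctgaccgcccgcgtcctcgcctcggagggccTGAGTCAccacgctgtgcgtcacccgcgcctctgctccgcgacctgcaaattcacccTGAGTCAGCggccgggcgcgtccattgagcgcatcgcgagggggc
Nfe2l2, chr2:75704664-75704913, minus strand: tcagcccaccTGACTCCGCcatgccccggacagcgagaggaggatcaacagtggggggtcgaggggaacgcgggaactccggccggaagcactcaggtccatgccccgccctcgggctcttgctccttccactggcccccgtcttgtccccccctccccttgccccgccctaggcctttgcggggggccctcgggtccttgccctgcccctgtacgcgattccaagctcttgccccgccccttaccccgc
Gclm, chr3:122245307-122245556, plus strand: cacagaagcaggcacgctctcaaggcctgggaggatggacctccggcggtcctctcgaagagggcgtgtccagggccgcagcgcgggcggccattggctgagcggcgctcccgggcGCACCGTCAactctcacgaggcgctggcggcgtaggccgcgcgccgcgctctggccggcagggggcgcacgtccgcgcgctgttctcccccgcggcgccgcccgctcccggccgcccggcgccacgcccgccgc
Txnrd1, chr10:82858956-82859205, plus strand: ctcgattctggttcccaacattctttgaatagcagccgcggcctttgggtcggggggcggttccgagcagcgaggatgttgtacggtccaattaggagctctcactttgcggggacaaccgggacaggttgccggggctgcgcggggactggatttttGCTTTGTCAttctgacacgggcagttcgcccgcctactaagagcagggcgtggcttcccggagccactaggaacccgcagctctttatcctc

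The Srxn1 promoter held TGAGTCA at 102 and at 45 bases before the start site (-102 and -45, first base of the match). At least 1 copy of TGAGTCA or TGACTCA was found in 5.20% of all promoters, and at least 2 copies in 0.222%. TGAGNNNGC was found at -158 and -45, and in 17.7% of all promoters. The TGACNNNGC match of Srxn1 began 29 bases after the start site, outside the stretch shown. The matches of Nfe2l2, Gclm and Txnrd1 began at -240, -134 and -92, the last at only 1 of the 3 Txnrd1 start sites. No match was found in the windows of Keap1, Nqo1 and Ephx1, which says only that these letters are absent there.

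The first comparison asked how far the level of each gene depended on the line. All 10 genes differed among the 21 lines with at least 2 mice (edgeR quasi-likelihood test over 15285 genes, called at a Benjamini-Hochberg adjusted p under 0.05), where 88.5% of all genes tested did. Adjusted p-values ran from 9.13e-19 for Srxn1 to 0.0122 for Gsr, and by p-value Srxn1 was at rank 9 of 15285. Over all 29 lines, including those with 1 mouse, the highest line mean was 36.8 times the lowest for Srxn1, 7.95 times for Nqo1 and 6.91 times for Hmox1. For Keap1 it was 1.96 times, and for Gsr, the least variable, 1.75 times. The highest mean of Nqo1 and of Hmox1 (both IL-2126) and the lowest of Srxn1 (IL-1452) came from 1 mouse. Both ends of Gsr (IL-2126 and IL-4032) did so as well, so these ratios go beyond the lines tested. The median ratio was 3.36 over the 10 genes and 2.32 over 8133 genes with a lowest line mean of at least 1 FPKM, of which 1.09% exceeded Srxn1.

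The intraclass correlation, the share of variance between lines in rank-based normal scores, was highest for Ephx1 (0.748) and Keap1 (0.736) and lowest for Nqo1 (0.381). Its median over the 10 genes was 0.553, next to 0.555 over 11284 genes. For Nqo1 it was 0.792 without IL-1052 and IL-2750, whose mice were at 1.18 and 9.14 FPKM in the former and at 1.95, 9.75 and 1.03 in the latter. For Srxn1 it was 0.450 in ranks and 0.934 on the log2(FPKM + 1) scale. Sorted by line mean, most neighbouring lines differed by less than the SD of mice within lines. Sorting many lines makes such steps small, so they bear on the order of neighbours and not on the size of the line differences. Of 28 steps between neighbours, none exceeded that SD for Nqo1, Gclm and Hmox1, and 3 did for Keap1 and for Srxn1.

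**Figure D1:**
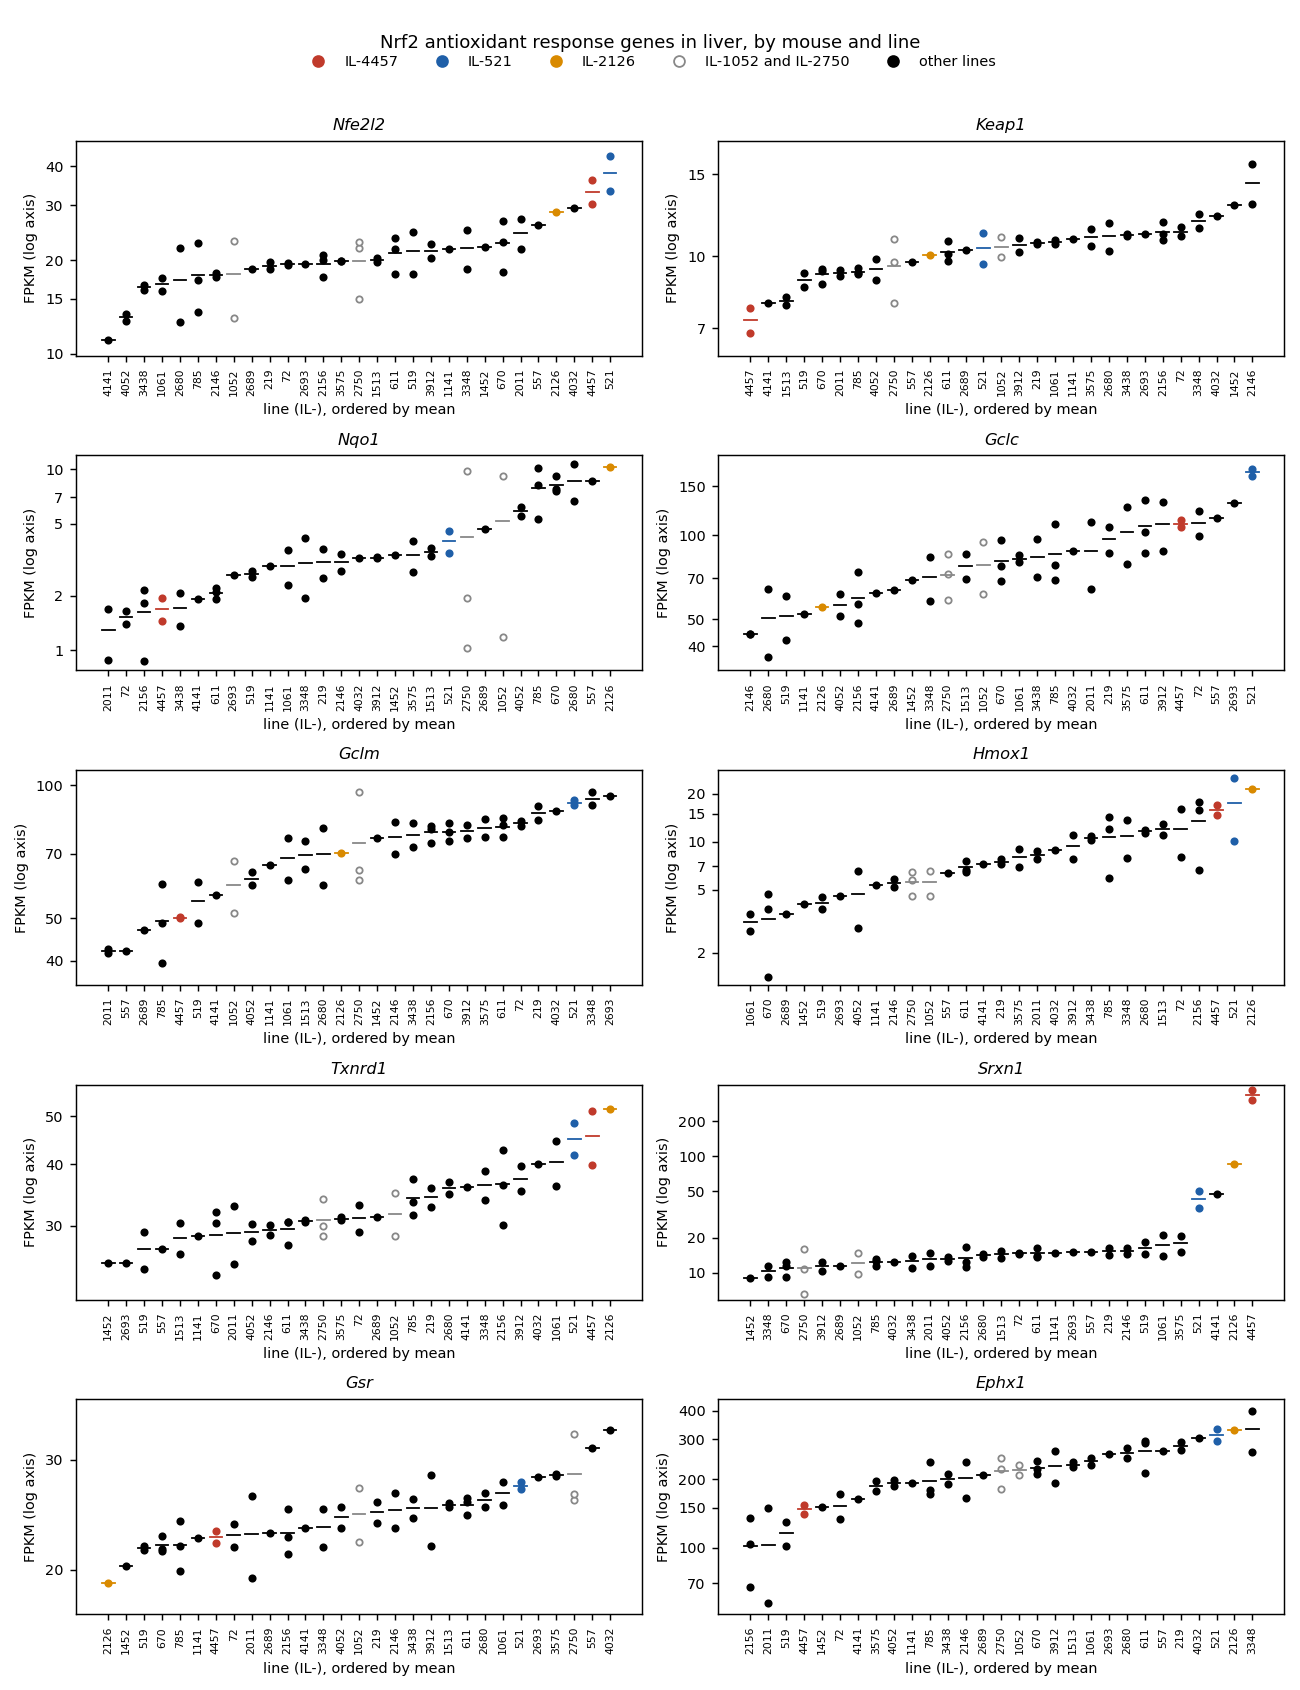
Each panel plots 1 gene as FPKM on a log axis, with points for mice, short bars for line means, and lines ordered by mean along the x axis. Srxn1 lies at or below 20.96 FPKM in 25 lines and is higher in IL-521, IL-4141, IL-2126 and IL-4457, and the open points show the spread of Nqo1 within IL-1052 and IL-2750.

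Each of the 21 lines was then compared with the mean of the other lines. Of the 210 tests of a gene in a line, 39 were called. Of these, 23 were higher, which is 10.95% of the tests against 10.9% over all genes and lines, and 16 were lower, 7.62% against 7.18%. The set as a whole was thus called about as often as other genes. In 6 lines no gene of the set was called, and in 10 lines 1 or 2 were. Without any 1 mouse, 12 of the 39 calls held, and in 4 of the 39 the mice of the line did not overlap with any other mouse. Neither count has its share over all genes beside it, so they do not set the members apart from other genes.

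The share of all genes called in a line is the background for its calls in the set. Gclm and Nqo1 were higher in IL-670 (10.3% of all genes), Gclm and Gsr in IL-2750 (11.6%), and Keap1 and Txnrd1 in IL-1061 (8.30%). A single gene was higher in IL-2146 (26.1%), IL-2156 (16.5%), IL-785 (12.0%), IL-2680 (10.5%), IL-611 (8.20%) and IL-3348 (6.03%). In the other direction, Hmox1 and Srxn1 were lower in IL-670 (7.18% of all genes) and Gclm and Ephx1 in IL-2011 (8.16%). A single gene was lower in IL-2146 (23.1%), IL-1513 (10.8%), IL-2156 (10.2%), IL-785 (7.75%), IL-2680 (6.16%), IL-2750 (5.65%), IL-3912 (5.57%), IL-1061 (4.34%), IL-3348 (3.18%) and IL-4052 (2.89%). The remaining calls were in IL-521 and IL-4457.

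**Figure D2:**
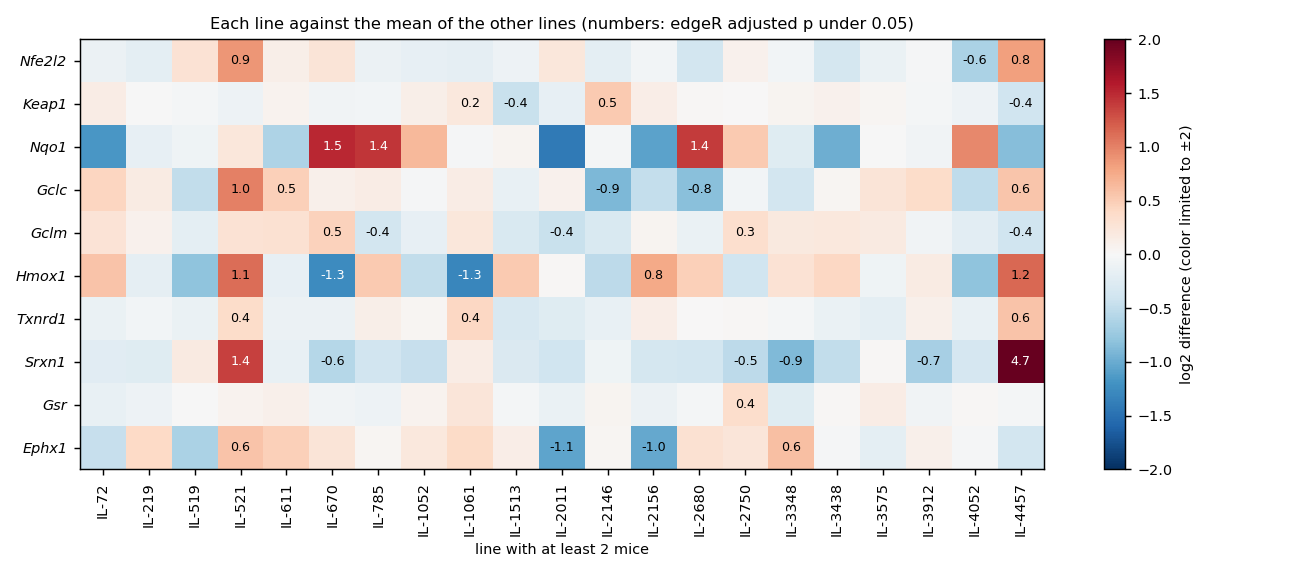
The grid plots the log2 difference of each gene (rows) in each of the 21 lines with at least 2 mice (columns) from the mean of the other lines, in color limited to 2 either way, with numbers where the edgeR adjusted p was under 0.05. IL-521 and IL-4457 hold the most numbers, and the row of Srxn1 reaches 4.67 in IL-4457.

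The regulators Nfe2l2 and Keap1 stood near opposite ends of the line order in IL-4457. Nfe2l2 (ENSMUSG00000015839, chr2:75513570-75542698, minus strand, NCBI build 37) was between 11.1 and 43.1 FPKM with a median of 19.9. The mice of IL-521 were at 43.1 and 33.4 FPKM and those of IL-4457 at 30.2 and 36.2, and no mouse of another line was above 29.5. Against the mean of the other lines, Nfe2l2 was higher in IL-521 (log2 difference 0.88, SE 0.15, edgeR adjusted p = 8.77e-05) and in IL-4457 (0.83, SE 0.15, adjusted p = 4.70e-05). The call in IL-521 was lost without its replicate 1 (0.66), and that in IL-4457 held without any mouse. Nfe2l2 was lower in IL-4052 (-0.63, SE 0.17, adjusted p = 0.0191), with mice at 13.4 and 12.8 FPKM, a call lost without replicate 1 (-0.79) or 2 (-0.47).

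Keap1 (ENSMUSG00000003308, chr9:21034174-21043776, minus strand) ranged only from 6.86 to 15.8 FPKM, with a median of 10.3. The mice of IL-4457 were the lowest of all, at 6.86 and 7.76 FPKM, and those of IL-2146 the highest, at 15.8 and 12.9. Neither line overlapped with any other mouse. Keap1 was lower in IL-4457 (log2 difference -0.40, SE 0.07, edgeR adjusted p = 6.86e-05) and in IL-1513 (-0.45, SE 0.07, adjusted p = 3.91e-05) and higher in IL-2146 (0.53, SE 0.07, adjusted p = 4.25e-07), and these 3 calls held without any mouse. In IL-1061 it was higher by 0.22 (adjusted p = 0.0378), a call lost in 17 of 47 fits without 1 mouse (0.17 to 0.25) and without IL-4457 (0.19), and its line means differed by 0.07 on the log2(FPKM + 1) scale. In IL-2146 the summed level of endothelial markers, at 13.1 FPKM on average, and of stellate cell markers, at 12.7, was the lowest of any line, against medians of 32.8 and 68.3 over the mice. The part of these cells in the levels of Keap1 and Gclc there was not tested.

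Glutathione synthesis is limited by glutamate-cysteine ligase, of which Gclc encodes the catalytic and Gclm the modifier subunit. Gclc (ENSMUSG00000032350, chr9:77602342-77642292, plus strand) was between 36.7 and 172.5 FPKM, with a median of 79.1. Both mice of IL-521, at 172.5 and 163.7 FPKM, were above every other mouse, the next being at 133.4. Gclc was higher in IL-521 by a factor of 2.01 (log2 difference 1.01, SE 0.19, edgeR adjusted p = 0.00037), and this held without any mouse. In IL-2146 both mice were at 44.3 FPKM, and Gclc was lower (-0.89, adjusted p = 0.00206), a call lost without replicate 1 (-0.86). Gclc was also lower in IL-2680 (-0.83, adjusted p = 0.0114, lost without replicate 2 at -0.52) and higher in IL-611 (0.48, adjusted p = 0.0481, lost in 28 of 47 fits without 1 mouse, at 0.29 to 0.51, and without IL-2146 at 0.45).

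Gclm (ENSMUSG00000028124, chr3:121948475-121972902, plus strand) was between 39.6 and 96.5 FPKM, with a median of 74.7. The highest line mean was 94.6 FPKM in IL-2693, from 1 mouse, and the lowest 42.1 ± 0.714 FPKM (SD, n = 2) in IL-2011. Gclm was higher in IL-670 (log2 difference 0.46, SE 0.11, edgeR adjusted p = 0.0022), where the 3 mice were at 74.6, 78.3 and 82.2 FPKM within the range of the other lines. The call held without any mouse, but on the log2(FPKM + 1) scale the difference was 0.17. It was lower in IL-2011 (-0.45, adjusted p = 0.0232, lost without replicate 1 at -0.49 or 2 at -0.42) and in IL-785 (-0.37, adjusted p = 0.021, lost without replicate 1 at -0.25 or 3 at -0.37). In IL-2750 it was higher by 0.34 (adjusted p = 0.0304, lost without replicate 3 at 0.14) and by 0.05 on the log2(FPKM + 1) scale, with the mice at 96.5, 61.1 and 64.2 FPKM. Whether Gclm was higher in IL-670 and IL-2750 thus depended on the scale. The test used counts with TMM factors, whereas FPKM also divides by the effective length of the gene's transcripts. For Gclm that length ran from 2098 to 4362 bases over the mice, and its part in the difference was not tested.

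The ratio of the subunits differed between lines. The FPKM of Gclc divided by that of Gclm had a median of 1.12 over mice and ran from 0.537 in a mouse of IL-2146 to 2.74 in the mouse of IL-557. In estimated fragments, Gclc and Gclm were at 10300 and 4898 in the mouse of IL-557. In the mice of IL-4457 they were at 10650 and 4187 and at 12080 and 4838, so IL-557 was not the highest on that scale. The intraclass correlation of the log2 ratio of FPKM was 0.629. In IL-4457 the ratio was 2.20 ± 0.0791 (SD, n = 2), where Gclc was higher (log2 difference 0.56, edgeR adjusted p = 0.0245) and Gclm lower (-0.40, adjusted p = 0.0229), and in IL-521 it was 1.84 ± 0.102. Both calls in IL-4457 were lost without replicate 1 (0.60 and -0.35) and without replicate 2 (0.52 and -0.46). An antisense transcript, Gm17494, overlaps Gclm and reached 4.60 FPKM, and Gm16754 overlaps Keap1 with up to 0.24 FPKM. Whether the counting used the strand is not given in the sources used here.

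Gsr encodes glutathione reductase, which returns oxidised glutathione to its reduced form. Gsr (ENSMUSG00000031584, chr8:34762995-34808635, plus strand) varied least in relative terms, between 19.1 and 33.4 FPKM with a median of 24.5. IL-2126 and IL-4032, at the lowest and the highest level, had 1 mouse each. Gsr was called only in IL-2750 (log2 difference 0.35, SE 0.07, edgeR adjusted p = 0.00135), with the mice at 25.9, 33.0 and 26.5 FPKM and within the range of the other lines. This held without any mouse, but replicates 1 and 2 of IL-2750 were most similar to mice of IL-1052.

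Srxn1 and Txnrd1 belong to the thioredoxin arm, sulfiredoxin restoring overoxidised peroxiredoxins and thioredoxin reductase keeping thioredoxin reduced with NADPH. Srxn1 (ENSMUSG00000032802, chr2:151931252-151937112, plus strand) had a median of 14.1 FPKM and a range from 6.6 to 367.9. The mice of IL-4457 were at 301.8 and 367.9 FPKM, a line mean of 334.8 ± 46.7 (SD, n = 2). Far below them came the mouse of IL-2126 at 85.8, those of IL-521 at 50.04 and 36.02, and the mouse of IL-4141 at 47.6 FPKM. The means of the remaining 25 lines lay between 9.10 and 17.9, and no mouse in them was above 20.96.

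In IL-4457 Srxn1 was higher than in the other lines by a factor of 25.4 (log2 difference 4.67, SE 0.11, edgeR adjusted p = 1.47e-24), and in IL-521 by 2.58 (1.37, SE 0.15, adjusted p = 1.01e-07). Both held without any mouse, and in IL-521 the log2 difference was 1.60 without IL-4457. The difference in IL-4457 was at rank 117 of 15285 genes in that line. Of the neighbouring genes within 300 kb, Csnk2a1 (0.07), Rbck1 (-0.10) and Trib3 (-0.18) were not called in IL-4457, and Tbc1d20 was lower (-0.39, adjusted p = 0.000869). Srxn1 was called lower in 4 lines, and since the mean of the other lines holds IL-4457, the values without that line stand beside them. In IL-3348 it was -0.88 (adjusted p = 0.00222) and -0.66 without IL-4457 (adjusted p = 0.0211), a call lost without replicate 1 (-0.69). In IL-670, IL-3912 and IL-2750 it was -0.56, -0.66 and -0.52, and all 3 calls were lost without IL-4457 (-0.33, -0.45 and -0.28) and without 1 mouse of the line itself.

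Txnrd1 (ENSMUSG00000020250, chr10:82296696-82360469, plus strand) was between 23.9 and 51.6 FPKM, with a median of 31.3. The highest mouse was that of IL-2126. The mice of IL-4457 were at 39.9 and 51.2 FPKM and those of IL-521 at 48.4 and 41.7, and both lines overlapped with IL-1061 at 44.6 and 36.1. Txnrd1 was higher in IL-4457 (log2 difference 0.58, SE 0.12, edgeR adjusted p = 0.000411), lost without replicate 2 (0.39). It was higher in IL-1061 (0.42, adjusted p = 0.0263), lost without replicate 1 (0.32) or 2 (0.50), and in IL-521 (0.36, adjusted p = 0.0471), lost in 10 of 47 fits without 1 mouse (0.24 to 0.51). No line was called lower.

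Hmox1, which encodes the inducible haem oxygenase, was between 1.41 and 25.2 FPKM with a median of 7.21 (ENSMUSG00000005413, chr8:77617490-77624495, plus strand). The mouse of IL-2126 was at 21.5 FPKM, those of IL-4457 at 14.8 and 17.1, and those of IL-521 at 25.2 and 10.1, so that the 2 mice of IL-521 were far apart and overlapped with other lines. Hmox1 was higher in IL-4457 (log2 difference 1.15, SE 0.29, edgeR adjusted p = 0.00186), lost without replicate 2 (1.05), and in IL-521 (1.11, SE 0.29, adjusted p = 0.00785), lost without replicate 1 (0.28). In IL-2156 it was higher by 0.75 (adjusted p = 0.0249), lost without replicate 2 (0.52) or 3 (0.59). It was lower in IL-1061 (-1.30, adjusted p = 0.024), with mice at 3.49 and 2.74 FPKM, lost without replicate 1 (-1.44) or 2 (-1.20), and in IL-670 (-1.26, adjusted p = 0.00427), lost without replicate 2 (-0.88).

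Nqo1 and Ephx1 act on foreign compounds, NAD(P)H quinone dehydrogenase reducing quinones by a pair of electrons and microsomal epoxide hydrolase opening epoxides to diols. Nqo1 (ENSMUSG00000003849, chr8:109912125-109927106, minus strand) was the least expressed of the set, between 0.87 and 10.6 FPKM with a median of 3.22, from 35.0 to 481.0 estimated fragments per mouse. The mice of IL-670 were at 7.57, 9.13 and 7.78 FPKM, those of IL-785 at 5.31, 8.13 and 10.1, and those of IL-2680 at 10.6 and 6.63. These mice were in the upper part of the range and overlapped with those of IL-2126, IL-557, IL-4052 and with 1 mouse each of IL-1052 and IL-2750. Nqo1 was higher in IL-670 (log2 difference 1.51, SE 0.32, edgeR adjusted p = 0.000873) and IL-785 (1.43, SE 0.32, adjusted p = 0.0015), which held without any mouse, and in IL-2680 (1.39, SE 0.38, adjusted p = 0.0112), lost without replicate 1 (1.07). In IL-4457, where Srxn1 was highest, the mice were at 1.45 and 1.95 FPKM.

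Ephx1 (ENSMUSG00000038776, chr1:182906286-182951035, minus strand) was the most abundant per length, between 57.4 and 399.5 FPKM with a median of 210.3. The mice of IL-2156 were at 134.6, 67.2 and 103.9 FPKM and those of IL-2011 at 57.4 and 149.0. Ephx1 was lower in IL-2156 (log2 difference -1.03, SE 0.19, edgeR adjusted p = 0.000132), which held without any mouse, and in IL-2011 (-1.05, SE 0.23, adjusted p = 0.00134), lost without replicate 1 (-0.55). It was higher in IL-3348 (0.60, adjusted p = 0.0478), with mice at 264.4 and 399.5 FPKM, lost in 33 of 47 fits without 1 mouse (0.25 to 0.89) and without IL-4457 (0.57). In IL-521 it was higher by 0.58 (adjusted p = 0.0403), with mice at 294.6 and 331.6 FPKM, lost without replicate 1 (0.65) or 2 (0.54) and without IL-4457 (0.56). The summed level of hepatocyte markers was lowest in IL-2156, at 27420 FPKM on average against a median of 48650 over the mice. Its sums of neutrophil (67.75) and bile duct markers (154.7, of which Spp1 152.8) were the highest of any line, against medians of 4.2 and 27.46. The part of these cells in the levels of Ephx1 and Hmox1 in IL-2156 was not tested.

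Calls gathered in IL-521 and IL-4457. In IL-521, 6 of the 10 genes were higher and none lower, where 10.1% of all genes were higher and 6.71% lower. These were Nfe2l2, Gclc, Hmox1, Txnrd1, Srxn1 and Ephx1, of which Gclc and Srxn1 held without any mouse. Gclm in IL-521 was at 90.3 and 92.6 FPKM, near the top of the range but not called, and Keap1 at 11.2 and 9.64 was near the median. In IL-4457, 5 genes were higher and 2 lower, where 20.9% and 18.4% of all genes were. Srxn1, Nfe2l2, Gclc, Hmox1 and Txnrd1 were higher there and Keap1 and Gclm lower, so that the targets did not share a direction in this line. Of these 7, Srxn1, Nfe2l2 and Keap1 held without any mouse.

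Partners of Nrf2 were called in both lines. Of 10 factor partners and degradation genes tested, 5 were higher and none lower in IL-521, where 10.1% and 6.71% of all genes were. In IL-4457, where 20.9% and 18.4% of all genes were, 4 were higher and 2 lower, the latter near that share. In IL-4457 these were Bach1, a repressor that competes for the same elements (log2 difference 3.82, SE 0.14, edgeR adjusted p = 1.45e-19), the small Maf genes Maff (3.31) and Mafk (1.96), and Sqstm1, whose product binds Keap1 (0.48). Nfe2l1 (-0.39) and Btrc (-0.40) were lower. In IL-521 Maff (2.70, SE 0.26, adjusted p = 6.23e-09), Bach2 (1.22), Mafk (0.83), Bach1 (0.80) and Sqstm1 (0.33) were higher. The list's median log2 difference was 0.31 in IL-521 and 0.10 in IL-4457, beside -0.01 and 0.0004 over all genes.

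The other antioxidant lists were treated in the same way, with the same shares of all genes in each line as their background. Of 6 glutathione genes tested besides the set, none was called in IL-521, and Gss, glutathione synthetase, was higher in IL-4457 (log2 difference 0.68, edgeR adjusted p = 1.72e-06). Of 7 thioredoxin and peroxiredoxin genes, Prdx1 was higher in IL-521 (0.48) and Sesn2 in IL-4457 (1.56). Of 7 haem and iron genes, the ferritin light chain gene Ftl1 (2.01), the iron exporter Slc40a1 (0.64) and ferrochelatase Fech (0.43) were higher and Blvrb lower (-0.50) in IL-521, and none was called in IL-4457. The level of Ftl1 had a median of 2308.0 FPKM over the mice, but the lowest line mean, in IL-219, was 2.74 FPKM, so its mean of the other lines holds a line almost without it. Of 6 genes that supply NADPH, G6pdx (0.71) and Me1 (0.69) were higher in IL-4457. Of 19 genes for conjugation and reduction of electrophiles, 3 were higher in IL-521, and 2 were higher and 3 lower in IL-4457, where Gsta2 was at -1.41. Of 5 efflux transporter genes, Abcc3 was higher in IL-521 (0.80), and Abcb6 (-0.40) and Abcc2 (-0.60) were lower in IL-4457. Over all lines, 57 of the 60 other pathway genes tested differed, where 88.5% of all genes did.

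Genes of other receptors and markers of other cell types also differed in these lines, and their part in the results was not tested. Their background is again 10.1% of all genes higher and 6.71% lower in IL-521, and 20.9% and 18.4% in IL-4457. Of 9 genes listed for the constitutive androstane and pregnane X receptors, 4 were higher in IL-521 by edgeR. These were Cyp2b9 (log2 difference 6.22), Cyp2b13 (5.67), Cyp2b10 (1.62) and Cyp3a11 (0.68). In IL-4457 Cyp2b9 (4.07) and Cyp2b13 (3.65) were higher and the receptor genes Nr1i3 (-1.39) and Nr1i2 (-0.87) lower. Cyp2b10 was at -1.35 there and not called (edgeR adjusted p = 0.158). Tiparp, a target of the aryl hydrocarbon receptor, was higher in IL-4457 (3.94), as was the receptor gene Ahr (0.92), but its target Cyp1a2 was lower (-0.72, adjusted p = 0.00128) and Cyp1a1 was at -0.80 (adjusted p = 0.0586). All 5 bile duct markers were higher in IL-4457, led by Epcam (4.18), and their summed level was 118.9 and 125.5 FPKM, against a median of 27.5 over the 55 mice. In IL-4457, 4 of 6 endothelial markers were higher, with sums of 54.3 and 55.0 FPKM against a median of 32.8, as was 1 of 8 macrophage markers. In IL-521, 1 of 5 bile duct and 2 of 6 stellate cell markers were higher, and none of the 8 macrophage or 6 endothelial markers was called. Of 3 neutrophil markers, Retnlg was higher in IL-4457 (2.46, edgeR adjusted p = 0.00377) and in IL-521 (2.19, adjusted p = 0.0254), from a median of only 0.27 FPKM over the mice. S100a8 and S100a9 were not called in IL-4457 (edgeR adjusted p = 0.125 and 0.0851) or in IL-521 (0.432 and 0.522). Hepatocyte markers were highly expressed in every mouse, with a summed level of at least 17290.0 FPKM, and no marker was at 0 in every mouse.

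Correlations among the 10 genes across the 29 line means were weak on the whole. Over the 45 pairs, Pearson's r of log2(FPKM + 1) had a median of 0.13 and ran from -0.49 to 0.65, and 29 pairs were positive. In a two-sided permutation test with 100000 permutations of the lines, 13 pairs passed p under 0.05 before any adjustment, 12 of them positive. Over all genes, between 7.4% (with Nqo1) and 27.8% (with Srxn1) were at a limma p under 0.05 before adjustment with a single member. Spearman's rho passed as well for 6 of these 13 pairs. The p-values adjusted over all genes come from limma, with 1 gene of the pair as the covariate.

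**Figure D3:**
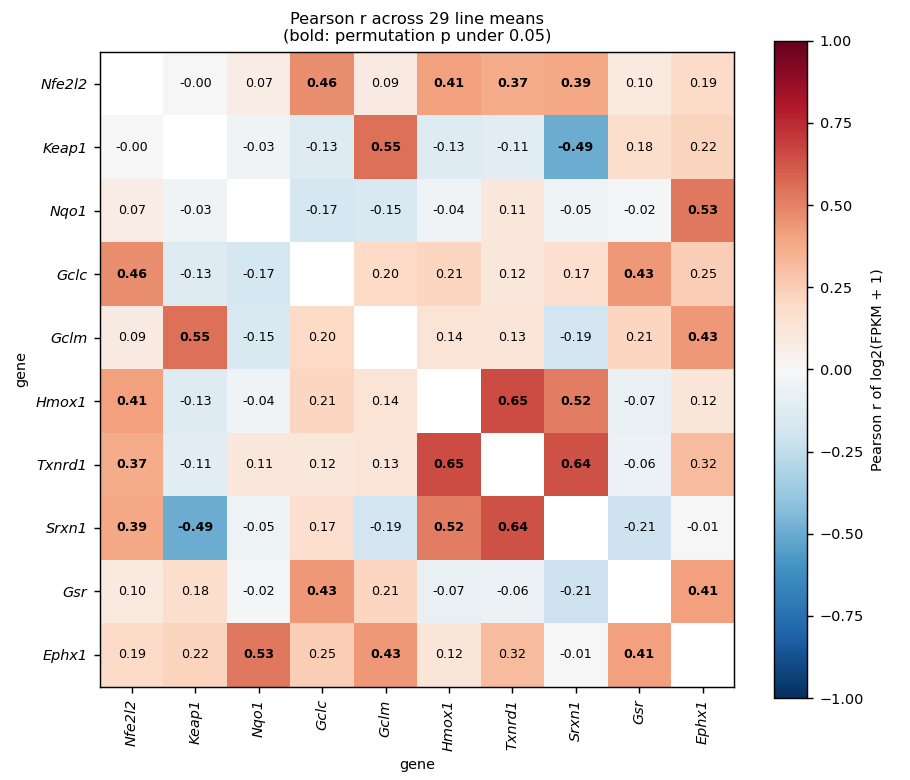
The grid shows Pearson's r of log2(FPKM + 1) across 29 line means for each pair of genes, with bold numbers where the permutation p was under 0.05. Hmox1, Txnrd1 and Srxn1 form the strongest group, with r between 0.52 and 0.65, and Keap1 and Srxn1 have the lowest value, -0.49.

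The highest value was that of Hmox1 and Txnrd1 (r = 0.65, permutation p = 0.00017 and rho = 0.56, permutation p = 0.00177), with a limma adjusted p of 0.0167 with Hmox1 as the covariate. Without IL-2126 and IL-4457, r was 0.49 (permutation p = 0.00973), and without IL-2126 and IL-670, farthest from the median of Hmox1, it was 0.55. Nqo1 and Ephx1 correlated at r = 0.53 (permutation p = 0.00355 and rho = 0.47, permutation p = 0.0104), and at 0.45 without IL-2126 and IL-557. Both pairs passed p under 0.05 on log2 CPM, TPM and rank scores, with depth as a covariate, and in each smaller set of lines tried. The limma adjusted p of Nqo1 and Ephx1 was not under 0.05 in either direction.

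Keap1 and Gclm had r = 0.55 (permutation p = 0.00164) and rho = 0.60 (permutation p = 0.00079), with a limma adjusted p of 0.0206 where 10.0% of all genes were positively associated with Keap1. Without IL-2146 and IL-4457 r was 0.54, and without IL-2146 alone 0.58. Gclm and Ephx1 (r = 0.43, permutation p = 0.0185), Gclc and Gsr (r = 0.43, permutation p = 0.02) and Gsr and Ephx1 (r = 0.41, permutation p = 0.0285) also passed with both measures and without the 2 lines farthest from the median. On log2 CPM with TMM factors in place of FPKM, these 4 pairs no longer passed, with r at 0.24, 0.27, 0.32 and 0.17 in the order given. Gclc and Gsr had r = 0.20 in the lines with at least 2 mice. Gclc and Gclm, subunits of the same enzyme, had r = 0.20 (permutation p = 0.297) and rho = 0.33 (permutation p = 0.084).

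Srxn1 correlated with Txnrd1 (r = 0.64, permutation p = 0.00041), Hmox1 (r = 0.52, permutation p = 0.00241), Keap1 (r = -0.49, permutation p = 0.00859) and Nfe2l2 (r = 0.39, permutation p = 0.0468), but rho was 0.23, 0.25, -0.21 and 0.06, with permutation p between 0.195 and 0.741. Line means of Srxn1 fall into 25 low lines and 4 high ones. Without IL-4457 alone, r was 0.61 with Txnrd1 (permutation p = 0.00148) and 0.47 with Hmox1 (permutation p = 0.00964), which still passed, and -0.25 with Keap1 (permutation p = 0.19) and 0.18 with Nfe2l2 (permutation p = 0.337), which did not. On rank-based normal scores r was 0.45 with Txnrd1 (permutation p = 0.0148), 0.41 with Hmox1 (permutation p = 0.0259) and -0.36 with Keap1 (permutation p = 0.0533). Without IL-4457 and IL-2126, farthest from the median of Srxn1, r was 0.40, 0.25, -0.31 and -0.03, and only that with Txnrd1 passed (permutation p = 0.0391).

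**Figure D4:**
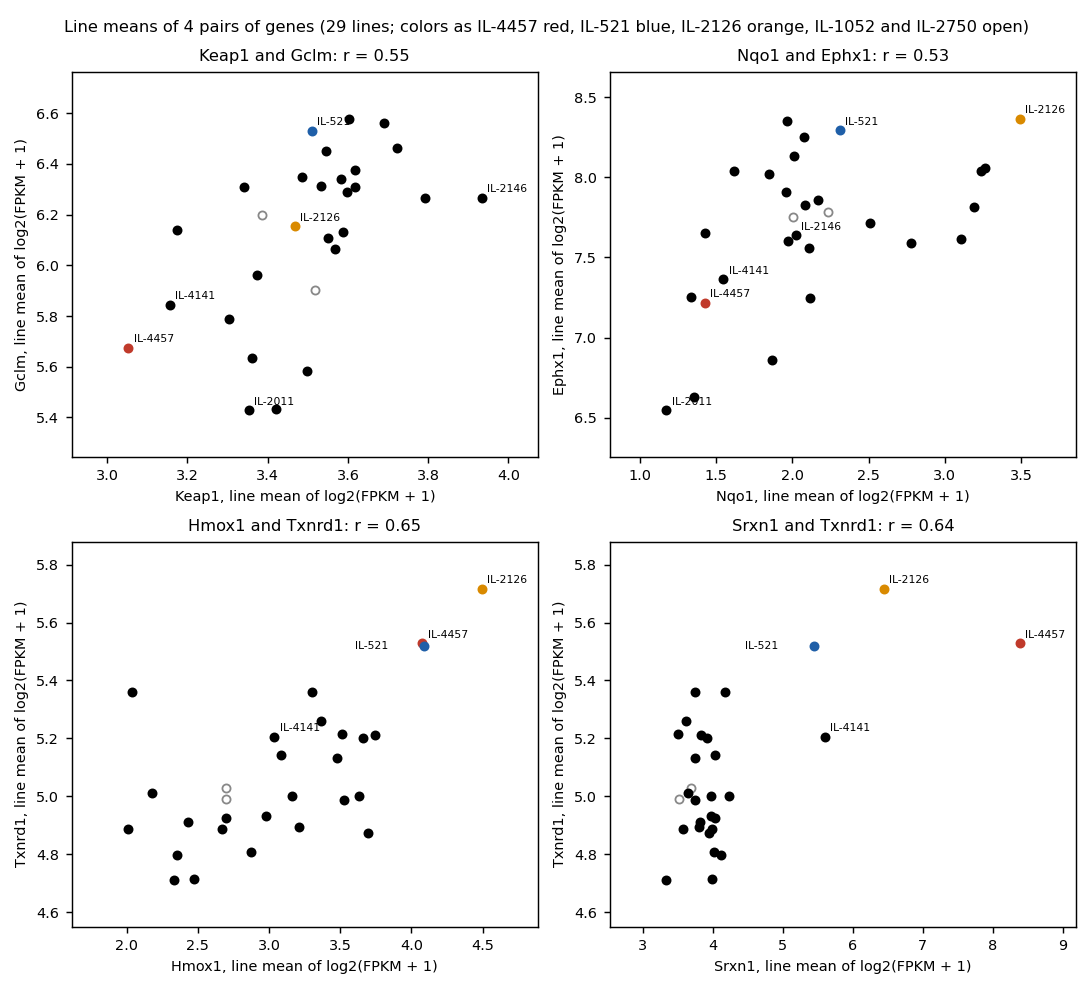
Each panel plots line means of log2(FPKM + 1) for 2 genes, 1 point a line, with IL-4457 in red, IL-521 in blue, IL-2126 in orange, and IL-1052 and IL-2750 open. In the panel of Srxn1 and Txnrd1 (r = 0.64) 4 lines lie to the right of a column of 25, whereas the points of Keap1 and Gclm (r = 0.55) are spread along both axes.

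The Nfe2l2 transcript was then set against its targets. Across line means r was positive with all 8 targets, from 0.07 with Nqo1 to 0.46 with Gclc. It passed p under 0.05 with Gclc, Hmox1, Srxn1 and Txnrd1 (permutation p = 0.0108, 0.0258, 0.0468 and 0.0492), and rho passed with none (for Gclc rho = 0.36, permutation p = 0.0584). Without IL-4457 it still passed with Gclc (0.43) and no longer with Hmox1 (0.34), Txnrd1 (0.28) and Srxn1 (0.18), and without IL-2146 no longer with Txnrd1 (0.36) and Srxn1 (0.39). In the lines with at least 2 mice r was higher, at 0.63 with Gclc (permutation p = 0.00223), 0.65 with Srxn1 (permutation p = 0.00772), 0.51 with Txnrd1 (permutation p = 0.0192) and 0.46 with Hmox1 (permutation p = 0.031). Without IL-4141 and IL-521, farthest from the median of Nfe2l2, r with Gclc was 0.29 (permutation p = 0.146). No gene at all was associated with Nfe2l2 by limma at an adjusted p under 0.05 (0%, with 1128 of 11283 genes at an unadjusted p under 0.05), so none of its targets was. Leaving out the mouse of IL-4141 gave 182 such genes, and leaving out IL-4457 gave 18. With Keap1, the inhibitor, r of Nfe2l2 was -0.0011, and Keap1 itself was positive with 3 of the 8 targets.

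Genes of the rest of the transcriptome gave a background for each member (limma on 29 line means). With Keap1, 10.0% of genes were positively and 2.29% negatively associated, with Srxn1 7.53% and 7.05%, with Hmox1 4.48% and 0.0798%, and with Txnrd1 3.41% and 0.399%. With Gclc it was 1.30% and 0.124%, with Ephx1 1.05% and 0.0620%, with Gclm 0.0266% and 0%, and with Nqo1 0.00886% and 0%, and none was called with Gsr (1687 of 11283 at an unadjusted p under 0.05). Of the 90 ordered pairs within the set, 7 were called, namely Hmox1 and Txnrd1 from both sides, Txnrd1 and Srxn1 from both sides, Gclm and Srxn1 with Keap1, and Hmox1 with Srxn1. Without IL-4457, 4 were called, without IL-4457 and IL-2126, 0, and without IL-2146, 8. Without the mouse of IL-2126 the count of genes called fell from 430 to 0 with Txnrd1 and from 514 to 22 with Hmox1, and without IL-2146 the count with Gclc fell to 5.

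By the highest r over 11283 genes, the profiles nearest to Srxn1 were Thbs1 (0.95), Dusp5 (0.95) and 1700017B05Rik (0.94), and without IL-4457 they were Actg1 (0.91), Dusp5 (0.90) and Tnfrsf12a (0.89). Nearest to Keap1 were Dgcr2 (0.86), Oplah (0.85) and AI837181 (0.84), and nearest to Nqo1 the carboxylesterase gene Ces2h (0.82), followed by Ccbl2 (0.66) and Cyb5 (0.65). Gclm was nearest to the proteasome subunit gene Psmd5 (0.81), with Uck1 (0.74) and Olfm3 (0.73) after it, and Gclc to Abca8b (0.79), Elp4 (0.79) and Sp3 (0.75). For Hmox1 the list was led by the small heat shock protein gene Hspb1 (0.79), Zfp384 (0.78) and Psmd7 (0.77), for Txnrd1 by Ywhag (0.79), Sccpdh (0.77) and Mta2 (0.76), and for Ephx1 by Trap1 (0.78). The nearest to Nfe2l2 were Ezh2 (0.71), Etl4 (0.70) and Rbbp6 (0.70), none of them called, and without IL-4457 Vrk2 (0.76), Topors (0.76) and Epb4.1l5 (0.74), and to Gsr Tax1bp1 (0.74), Rev3l (0.73) and Adra1a (0.73). Without IL-4457 the first place also passed to Elp4 (0.84) for Gclc and to Chmp4b (0.79) for Hmox1. Over all 29 lines in no case was another gene of the set among the 3 nearest.

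Of 55 other pathway genes tested, 5 were positive and 1 negative with Srxn1 (7.53% and 7.05% of all genes), 4 were positive with Txnrd1 (3.41%) and 3 with Hmox1 (4.48%), and 2 were positive and 1 negative with Keap1 (10.0% and 2.29%). For Srxn1, Hmox1 and Keap1 these shares are near the background or below it. The genes called with Srxn1, Hmox1 and Txnrd1 included factor partners, but also genes outside the pathway. With Srxn1, 2 of 3 bile duct markers, 1 of 6 endothelial markers and 1 of 4 aryl hydrocarbon receptor genes were positive. By limma, r of Sqstm1, Mafk and Maff was 0.63, 0.83 and 0.70 with Srxn1, 0.66, 0.62 and 0.54 with Hmox1, and 0.66, 0.65 and 0.58 with Txnrd1, and all 9 were called. Bach1 was called with Srxn1 (0.87) and Txnrd1 (0.56). These fits share the same lines. Without IL-4457, Sqstm1 (0.63), Mafk (0.72), Maff (0.70) and Bach1 (0.69) were still called with Srxn1, and Sqstm1 (0.62) and Mafk (0.58) with Hmox1, which lost Maff, while Txnrd1 kept none of its 4. Outside the pathway, Tiparp (0.84), Cyp2b13 (0.72) and Cyp2b9 (0.59) were called with Srxn1 without that line, Tiparp above every partner. Gclc was associated with the iron exporter Slc40a1 (0.71) and with Fech (0.65), and Ephx1, which was positive with 1.05% of all genes, with Gstm1 (0.70), Idh1 (0.68), Abcc3 (0.60) and Gsta2 (0.59). Without IL-4457 Gclc kept both, whereas Ephx1 kept Gstm1 (0.69) and Idh1 (0.68) and lost the other two. No other pathway gene was called with Nfe2l2, Nqo1, Gclm or Gsr, where 0% to 0.0266% of all genes were. The median r of the 55 genes was 0.34 with Ephx1, beside 0.13 over all genes, and 0.06 with Srxn1, beside -0.03.

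Summed cell markers correlated with some members across line means, with p-values not adjusted for the number of pairs. Hmox1 correlated with the neutrophil sum (r = 0.56, permutation p = 0.0017, and rho = 0.53, permutation p = 0.00327), which ranged from 0.39 to 130.8 FPKM over the mice, and r was 0.45 without IL-2126 and IL-2156. Nfe2l2 correlated with the bile duct sum (r = 0.46, permutation p = 0.0126, and rho = 0.58, permutation p = 0.00114), which ranged from 6.5 to 208.3 FPKM, and Hmox1 did so at r = 0.43 (permutation p = 0.0205). That sum was mostly 1 gene, Spp1, with a median of 25.13 FPKM beside 27.46 for the sum and a maximum of 206.3. Of its 5 genes, 3 had a median under 0.5 FPKM, so the sum follows Spp1 more than bile duct markers in general. Gclc correlated with the endothelial sum at r = 0.44 (permutation p = 0.0161), and at 0.26 without IL-2146 and IL-519. Of the 80 pairs of a member and 1 of 8 marker lists, these and Hmox1 with the lymphocyte sum (r = 0.39) and Ephx1 with the red cell sum (r = -0.38) passed p under 0.05 with both measures, 6 in all. This count has no share over all genes beside it, so it does not set the members apart from other genes. Without the 2 lines farthest from the median of the sum, r was 0.50 for the lymphocyte sum and -0.28 for the red cell sum (permutation p = 0.156). The lymphocyte sum had a median of only 1.55 FPKM, and 4 of its 5 genes had a median under 0.5 FPKM. Hmox1 and the macrophage sum had r = 0.29 (permutation p = 0.125) and rho = 0.40 (permutation p = 0.0347), and r = 0.62 without IL-2126 and IL-557. The part of these cells in the levels of the members was not tested.

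Body weight, age and depth were tested across line means with limma, and no member was associated with any of them. Over all genes the count was 0 for each, with 906, 659 and 418 of 11284 genes at an unadjusted p under 0.05. The largest r with body weight was that of Nqo1 (-0.35, adjusted p = 0.621) and with age that of Hmox1 (0.33, adjusted p = 0.872).

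Isoform ratios, the percentage of a gene's expression assigned to each annotated transcript, were available as variable traits for 6 members, with a median intraclass correlation of 0.395 beside 0.253 over 6650 traits of all genes. For Gsr the minor isoform ENSMUST00000033992, with 13 exons and its first base at chr8:34763710, took between 0 and 15.02% of expression. The main isoform ENSMUST00000163254 has 14 exons and starts at chr8:34764062. The intraclass correlation was 0.802, higher than that of 99.3% of the traits, and 0.784 without IL-1052 and IL-2750. The mice of IL-4052 were at 0.36% and 0.26%, from 7.25 and 4.79 estimated fragments, those of IL-219 at 0.99% and 0.54%, and those of IL-3575 at 10.3% and 9.90%, from 208.8 and 242.5 estimated fragments. The single mouse of IL-1141 was at 15.02%. The mice of IL-4052 and IL-219 thus did not overlap with those of IL-3575, and their total Gsr was at 25.2 and 23.3, 25.7 and 23.8, and 28.3 and 28.5 FPKM.

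**Figure D5:**
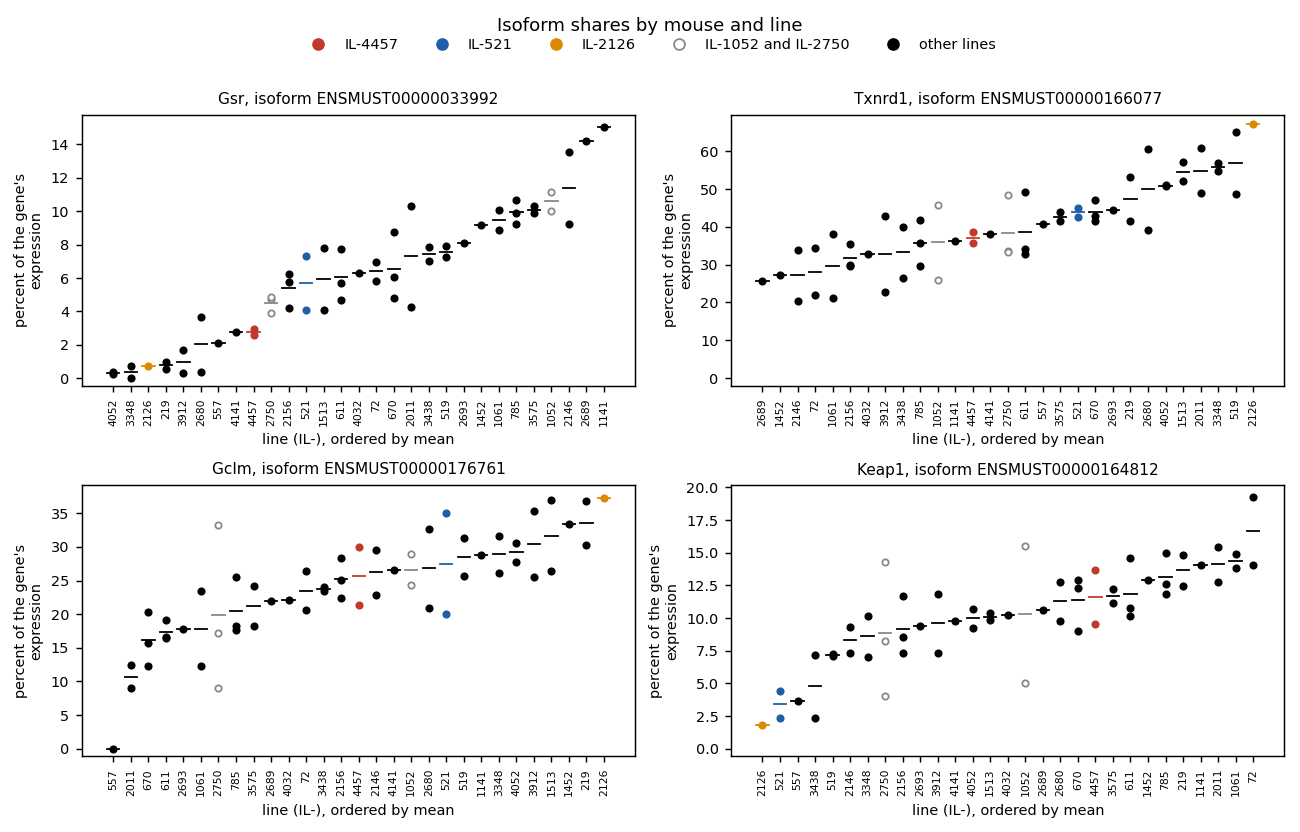
Each panel plots the percentage of a gene's expression assigned to 1 isoform, with points for mice, bars for line means, and lines ordered by mean. The Gsr panel rises from near 0 in IL-4052 to 15.02% in IL-1141 with mates close together, while mates lie farther apart for Txnrd1, Gclm and Keap1.

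For the other members mates differed more. The Txnrd1 isoform ENSMUST00000166077, which shares its start with ENSMUST00000020484 and has 14 exons in place of 15, took between 20.5% and 67.3%, with the highest share in the mouse of IL-2126 and an intraclass correlation of 0.437. The Gclm isoform ENSMUST00000176761 took up to 37.3% (0.404) and was listed at 0 in the mouse of IL-557, where ENSMUST00000029769 took 90.4%. The Keap1 isoform ENSMUST00000164812 took between 1.79% and 19.3% (0.386, and 0.622 without IL-1052 and IL-2750), with the lowest share again in IL-2126. Nqo1 and Gclc had 1 annotated transcript each. Srxn1 was made up of ENSMUST00000099225 to at least 89.1% in every mouse.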

How the data were processed

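Liver RNA of 55 male mice of 29 CC lines was sequenced as paired 50-base reads from a stranded poly(A) kit. The authors aligned reads to the mm9 (NCBI37) transcriptome with Bowtie 2 and quantified genes and isoforms with RSEM 1.2.18, and the deposited tables hold expected counts, TPM and FPKM per gene and isoform. The deposited isoform tables also give the percent of each gene's expression assigned to an isoform. Symbols came from an annotation of the same build and matched 37205 of 37620 gene IDs.

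Mice were grouped by the line in their labels. Expected counts were rounded and tested with edgeR 4.0.16 (R 4.3.3, TMM factors, quasi-likelihood F test, default expression filter) in the 47 mice of 21 lines with at least 2 mice, among lines and for each line against the mean of the others. Across 29 line means of log2(FPKM + 1), limma 3.58.1 tested 11284 genes with a maximum of at least 2 FPKM against each member, body weight, age and depth. Pairs of members and summed lists were tested by two-sided permutation of lines (100000 permutations, scipy 1.17.1). The intraclass correlation used rank-based normal scores of values binned at the larger of 0.5 and 1/200 of the maximum, with at least 12 levels. Both models were tested on simulated data, where edgeR recovered 139 of 200 changed genes among lines with 6 false calls, and limma 198 of 200 with 4. For line IL-670 against the others, edgeR recovered 82 of 100 genes changed 2-fold and 97 of 100 changed 4-fold, with 16 false calls.

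A depth between 20.5 and 34.0 M estimated fragments gave between 35.0 and 481.0 fragments for Nqo1, the shallowest member. FPKM depends on the share taken by other genes in a library, which log2 CPM with TMM factors does not in the same way. The genes named beyond the set were the 3 with the highest r for each member (for Ephx1 only the first, since another is not reported here) and the genes of fixed lists past the threshold. Members and lists were chosen with earlier results of these data known. Alternatives included DESeq2 1.42.0, other scales, filters and sets of lines, and leaving out each mouse. Strand use in the counting is not given in the sources used here.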

Additional observations from a re-analysis of the deposited data

How the results depend on the processing

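Among-line calls of all 10 members, the count of genes that differed among lines (13129 to 13599) and the count of member calls in single lines (33 to 45) kept within 1.5 times of the reported value when any 1 mouse was left out. These fits kept the dispersion trend of the full fit, and a lone remaining mouse was assumed to vary like the other lines. The median r over pairs (0.11 to 0.17) and the pairs with p under 0.05 (10 to 14) did so as well. Counts of genes associated with a member moved more, from 0 to 182 for Nfe2l2, 928 to 1924 for Keap1, 52 to 274 for Gclc, 2 to 15 for Gclm, 22 to 726 for Hmox1, 0 to 700 for Txnrd1, 1106 to 1931 for Srxn1, 0 to 70 for Gsr and 63 to 392 for Ephx1, with 4 to 9 ordered member pairs. With TPM the counts were 28 for Nfe2l2, 447 for Gclc, 67 for Gclm, 2199 for Hmox1, 1555 for Txnrd1, 872 for Gsr and 1307 for Ephx1, with 12 member pairs and a median r of 0.24. With log2 CPM they were 2 for Nfe2l2, 2090 for Keap1, 81 for Gclc, 0 for Gclm, 18 for Hmox1 and 22 for Ephx1, with a median r of 0.0177. Without IL-1052 and IL-2750 they were 72 for Gclc, 12 for Gclm, 258 for Hmox1, 10 for Gsr and 75 for Ephx1, and the median intraclass correlation of isoform ratios was 0.526. In the lines with at least 2 mice they were 40 for Nfe2l2, 895 for Keap1, 642 for Srxn1, 40 for Ephx1 and 0 for Gclc, Gclm, Hmox1 and Txnrd1, with 1 member pair. With every gene above 0 FPKM they were 1 for Nfe2l2, 52 for Gclc, 6 for Gclm, 272 for Hmox1, 1 for Gsr and 69 for Ephx1. Of the alternatives chosen after seeing the data, leaving out IL-4457 gave 18 for Nfe2l2, 704 for Keap1, 507 for Gclc, 264 for Hmox1, 79 for Txnrd1 and 780 for Srxn1, with 4 member pairs. Leaving out IL-2146 gave 5 for Gclc, 73 for Gsr and 222 for Ephx1. Leaving out IL-4457 and IL-2126 gave 13 for Nfe2l2, 833 for Keap1, 507 for Gclc, 11 for Hmox1, 0 for Txnrd1, 34 for Srxn1 and 83 for Ephx1, with 0 member pairs and 8 pairs with p under 0.05, and turned r of Nfe2l2 and Srxn1 to -0.0302. The cause was not tested. No paired analysis was made, because the labels name no pairs of mice between lines. The replicate numbers used here only name the mice of a line in sample order.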
